A study of Rattus norvegicus with 9 samples.

Results

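Osteoblasts, the cells that lay down and mineralise bone, made up 297 of the 114232 cells (0.260%) recovered around a circular osteotomy of the rat tibia. A cell was counted as an osteoblast when it carried at least 3000 UMIs (unique molecular identifiers, each standing for 1 captured mRNA molecule) and, per 10000 of its UMIs, at least 200 of Col1a1, the main chain of type I collagen, and at least 50 of Bglap, the bone protein osteocalcin. Barcodes with fewer than 200 genes, or with over 20% of their UMIs mitochondrial, had been left out first. In all 8 libraries analysed, Sprague-Dawley rats of 6 to 8 weeks had a 3-mm circular osteotomy of the proximal tibia and a 4-mm full-thickness skin wound on the foot of the same side. The TO libraries came from osteotomy alone and the TOE libraries from osteotomy followed by radial shock waves (rESWT) given there on day 2 and again on day 4, so that the TOE libraries of day 2 followed 1 session. Names give the day and, in TOE, the hours between session and collection. TO had no session, and its hours name the matched time. The TO libraries are, in order of time, TO 2d 0h (at hour 0 of day 2), TO 2d 4h, TO 4d 4h and TO 4d 24h. The TOE libraries are TOE 2d 4h, TOE 2d 24h, TOE 4d 4h and TOE 4d 24h. Where 4 values are given for an arm, they follow these orders. TO 2d 24h was not analysed here. Every condition was 1 library. The design text lists 9 rats for 9 samples, but no label ties a library to a single animal.

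Osteoblasts arise from stromal precursors under Runx2 and then Sp7, and fill their secretory pathway with type I collagen and non-collagenous matrix proteins. Alkaline phosphatase (Alpl) and the phosphatase Phospho1 then free phosphate for mineral, while pyrophosphate, to whose supply Enpp1 and Ankh each contribute, holds mineral back. Some osteoblasts are buried in their own matrix and become osteocytes, which take up Dmp1, Phex, Mepe and, late, Sost.

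The markers given with the label were chosen with earlier results of these data known, so they describe the cells and do not test the label. Besides the pair used for the choice, Ibsp (bone sialoprotein) was present at 3532 to 7241 CPM, with a median of 4983 CPM (UMIs per 1000000 UMIs of the osteoblasts of a library) over the 8 libraries. Col11a1, a minor fibrillar collagen chain, lay at 4054 to 7807 CPM, Col11a2 at 1177 to 2331 CPM, and Serpinf1, the anti-angiogenic matrix protein PEDF, at 1241 to 2504 CPM. B-lineage cells, which should lack these genes and served as a gauge of free RNA, held Ibsp at 1.31 to 34.8 CPM, Col11a1 at 1.11 to 15.9 CPM and Serpinf1 at 0.617 to 14.3 CPM. The bone genes were therefore far above the background in every library. Collagen-rich cells with less Bglap, the comparison cells used below, are more alike. In libraries with at least 10 of them they held Ibsp at 306 to 11617 CPM, with a median of 5079 CPM, so Ibsp did not separate them from osteoblasts. Col11a1 lay lower there, at 611 to 3171 CPM.

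The osteoblasts numbered 36, 17, 11 and 84 in the TO libraries and 28, 67, 26 and 28 in the TOE libraries. As shares of all cells this was 0.248, 0.111, 0.0864 and 0.596% in the TO libraries and 0.165, 0.464, 0.188 and 0.227% in the TOE libraries. The lowest, TO 4d 4h, had a 95% Clopper-Pearson interval of 0.0431 to 0.155%, and the highest, TO 4d 24h, one of 0.475 to 0.737%. The 4 libraries taken at 4 h held the 4 lowest shares. Intervals here cover counting error only, not differences between animals or dissections.

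The question of the design is what the shock waves changed, and it could be asked in the 3 pairs of equal day and hour. The osteoblast share of TOE divided by that of TO was 1.49 in the 2d 4h pair, with an exact conditional 95% interval from 0.787 up to 2.90. The 4d 4h pair gave 2.17 (interval 1.04 to 4.87), and the 4d 24h pair 0.381 (interval 0.239 to 0.591). The share was thus higher with shock waves at 4d 4h and lower at 4d 24h beyond counting error, and at 2d 4h the interval spanned 1. Each side of a pair was 1 library, so treatment and library cannot be told apart within a pair, and no test of treatment was run on the share. The 4d 4h interval reached below 1 with a Bglap minimum of 100 (0.870 to 4.59) or a UMI minimum of 5000 (0.991 to 4.70), and the 2d 4h ratio turned to 0.971 with a UMI minimum of 1500.

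Collagen-rich cells that missed only the Bglap gate numbered 477 and are used below as the comparison cells. They did not follow the osteoblasts: taking the pairs in the same order, their TOE over TO share ratio was 0.275 (interval 0.0997 to 0.662), 0.901 (0.675 to 1.20) and 2.40 (1.08 to 5.71). Of all collagen-rich cells, osteoblasts formed 52.2, 42.5, 9.91 and 89.4% in the TO libraries and 80.0, 26.6, 21 and 57.1% in the TOE libraries. They were the majority in TO 2d 0h, TO 4d 24h, TOE 2d 4h and TOE 4d 24h and the minority in the other libraries.

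**Figure D1:**
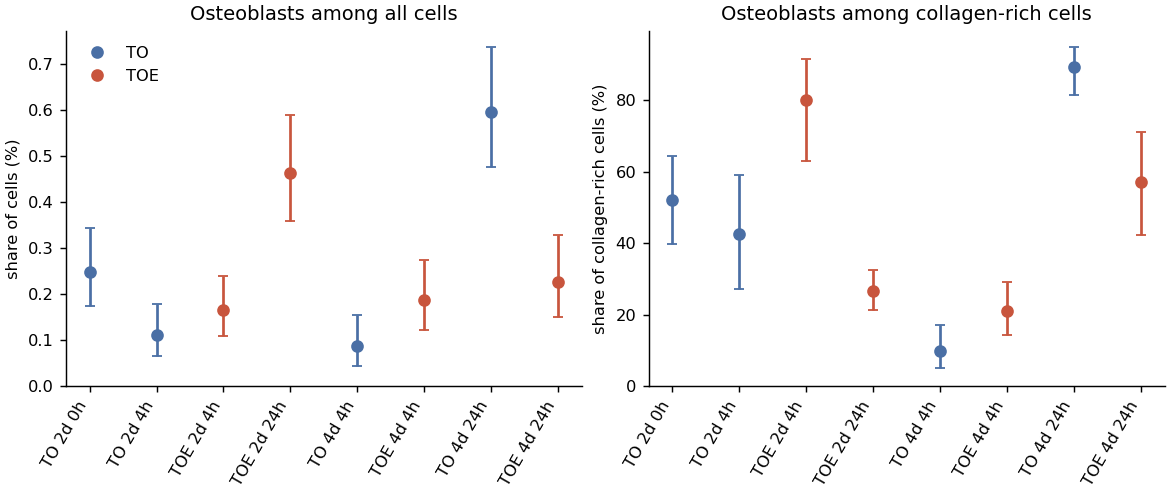
Osteoblasts as a share of all cells (left, %) and of collagen-rich cells (right, %) in each of the 8 libraries, with exact 95% Clopper-Pearson intervals as bars; blue marks TO and red TOE. TO 4d 24h stands highest in both panels, at 0.596% and 89.4%.

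The Bglap gate cut a continuous distribution. The 3 members nearest to it had 50.4, 52.1 and 52.8 Bglap UMIs per 10000, and the 3 cells just outside 49.8, 48.3 and 47.8. Within 20% of the gate lay 7 members above it and 12 cells below. A further 42 cells passed for Bglap but not for Col1a1, and 166 passed both but had fewer than 3000 UMIs. Free RNA lay far below both gates: other cells carried 0.766 to 16.5 Col1a1 and 0.0617 to 2.29 Bglap UMIs per 10000, library by library. Members were deeply sampled, with library medians of 21044 to 34886 UMIs, against 4572 to 5790.0 over all cells and 23197 to 36066 in the comparison cells. Whole libraries held 95954800 to 144146202 UMIs. Scrublet, a doublet caller, put 0 of the 297 members above its score of 0.25, where it put 2.15 to 4.13% of all cells. A lower score does not show that a member was a single cell, and 1 member held 3769 UMIs of the plasma-cell transcript Jchain. Of the members' barcodes, 3 also occurred in another library, none as a member.

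Markers of other cells were set beside their level in B-lineage cells. Cd79a of B cells lay at 24.9 to 129.8 CPM, against 1402 to 2005 CPM in B-lineage cells, which were chosen by this gene and Cd79b. Summed endothelial markers came to 2.49 to 25.2 CPM, below their 46.5 to 163 CPM in B-lineage cells, and smooth muscle markers to 24.3 to 178 CPM, against 6.58 to 68.9 CPM there. The 10 erythroid markers summed to 22.3 CPM in TOE 4d 24h, while the other libraries had 463 to 2483 CPM and B-lineage cells 48.3 to 3973 CPM. The plasma-cell transcript Jchain was set by a single member of TO 4d 24h, which held 3769 of the 3947 Jchain UMIs of all members. Neutrophil markers summed to 1393 to 5239.9 CPM, against 5117 to 15882 CPM in B-lineage cells. Macrophage markers summed to 266 to 1557 CPM, against 936 to 2393 CPM, and osteoclast markers to 212 to 412 CPM, against 178 to 233 CPM. The part of such RNA in the values of osteoblasts was not tested. Ahsg, Adipoq, Col10a1, Vegfd and Ms4a7 had no UMI in any member.

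These cells were given over to matrix. Of all osteoblast UMIs, Col1a1, Col1a2, Sparc and Bglap together took 23.1, 31.6, 32.7 and 29.9% in the TO libraries and 30.8, 23.6, 27.9 and 33.6% in the TOE libraries. Col1a1, itself part of the choice, lay at 95948, 158773, 150914 and 124959 CPM in the TO libraries and 154021, 106886, 139909 and 132462 CPM in the TOE libraries. The partner chain Col1a2 lay at 58660.5, 74726, 72626 and 72454 CPM in the TO libraries and 63849, 59124, 53515 and 71684 CPM in the TOE libraries. Sparc, the collagen- and calcium-binding osteonectin, lay at 27825, 41979.9, 49208 and 33771 CPM in the TO libraries and 41138, 28562, 41793 and 32124 CPM in the TOE libraries. The highest library was 1.65-fold above the lowest for Col1a1, 1.4-fold for Col1a2 and 1.77-fold for Sparc. The libraries count 3′ ends, so a level does not grow with transcript length, but capture differs between genes and levels are compared across libraries only. The rest of the 20 genes highest by mean CPM were Col11a1, Ibsp, Cst3, Col5a2, Tmsb10, Spp1, the ribosomal Rpl41, the mitochondrial mt-Rnr2, COX1, COX2, COX3, ATP6, CYTB and ND4, and the unnamed LOC120093067 and LOC120102105.

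Bglap, the late marker of the mineralising osteoblast, was also part of the choice. It lay at 48862, 40395, 53809.8 and 67425 CPM in the TO libraries and 48654, 41692, 43575 and 99278 CPM in the TOE libraries, with both 4d 24h libraries above the rest. The 250 bases upstream of its start in the RefSeq annotation of build GRCr8, on the minus strand at chr2:176137319-176137568, are shown because they hold the core letters bound by RUNX factors, in capitals. They are written in the direction of the gene. The core was searched as TGTGGT and, for the other strand, ACCACA. Serpinf1 followed Bglap closely from cell to cell, within the chosen genes compared below. It holds the same core on the other strand in its own 250 bases at chr10:60760899-60761148, also on the minus strand.

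Bglap: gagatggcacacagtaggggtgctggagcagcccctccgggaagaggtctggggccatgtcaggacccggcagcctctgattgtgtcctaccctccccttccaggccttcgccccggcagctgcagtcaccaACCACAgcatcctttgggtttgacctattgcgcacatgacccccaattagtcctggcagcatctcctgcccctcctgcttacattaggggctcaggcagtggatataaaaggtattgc
Serpinf1: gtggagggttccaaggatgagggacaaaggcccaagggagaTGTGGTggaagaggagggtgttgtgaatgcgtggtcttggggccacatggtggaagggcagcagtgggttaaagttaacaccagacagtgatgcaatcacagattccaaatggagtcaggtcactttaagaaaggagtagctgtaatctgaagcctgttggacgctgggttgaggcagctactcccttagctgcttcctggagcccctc

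In the Bglap window the core begins 118 bases before the start, and the letters TATAAA follow 15 bases before it. In Serpinf1 the core begins 209 bases before the start. Over all 27457 promoters of full length, 14.1% held the core in these 250 bases. Of the 20 bone matrix genes listed, 16 had a promoter and 4 of these held the core, namely Bglap, Sparc, Mepe and Serpinf1. Of the 14 mineralization genes, 8 had a promoter and 0 held it. Of the genes higher in osteoblasts than in Bglap-low collagen-rich cells, 675 had a promoter and 8.44% of these held it, beside 10.2% of all genes tested there. A match describes letters in a window, and 4 of 16 against 14.1% is no result about these genes.

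Among the other matrix proteins, Ibsp lay at 7241, 4000.0, 5626 and 3532 CPM in the TO libraries and 4926, 5477, 5036 and 4929 CPM in the TOE libraries. Spp1 (osteopontin), which binds both cells and mineral, lay at 4051, 2632, 4756 and 2408 CPM in the TO libraries and 2872, 3319.8, 4808 and 3513 CPM in the TOE libraries. The highest library was 2.05-fold above the lowest for Ibsp and 2-fold for Spp1, but single cells carried much of the Spp1: in TOE 4d 24h 1 cell held 80.3% of it. Serpinf1 lay at 1870.0, 1241, 1388 and 2504 CPM in the TO libraries and 1531, 1820.2, 1527 and 2236 CPM in the TOE libraries, highest in TO 4d 24h and TOE 4d 24h. The small proteoglycans Dcn (decorin) and Bgn (biglycan) lay at 1115 to 2003 CPM and 1236 to 2024 CPM, and Omd (osteomodulin) at 189.8, 74.6, 61.1 and 161 CPM in the TO libraries and 48.3, 111, 66.7 and 263 CPM in the TOE libraries. Omd was lowest in the 4 libraries of 4 h. The fibrillar chains Col5a2, Col5a1 and Col24a1 lay at 3350.0 to 4321 CPM, 1104 to 1659 CPM and 155 to 575 CPM.

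Single osteoblasts differed more than the libraries did. The median cell held 314 to 779 Bglap UMIs per 10000 by library, but within TO 4d 24h alone cells ran from 65.2 to 1935. Ibsp ran from 3.67 to 201 per 10000 in the same library, with quartiles of 18.3 and 48.1. Spp1 was spread widest, with medians of 0.159 to 36.3 per 10000 and cells at 0 in 7 of 8 libraries. In TOE 4d 24h the median was 0.159 and the highest cell 902.

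**Figure D2:**
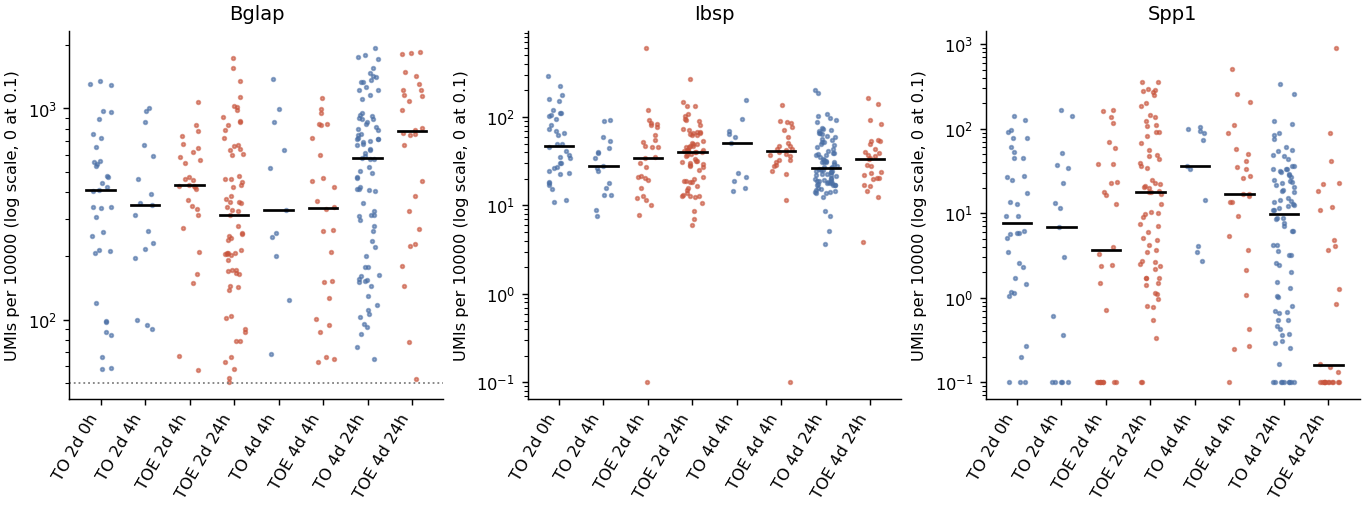
Bglap, Ibsp and Spp1 in every osteoblast (UMIs per 10000 of the cell, log scale, 0 drawn at 0.1) by library; blue is TO, red is TOE, black bars are medians, and the dotted line is the Bglap gate at 50. Spp1 spreads widest, from 0 to 902 in TOE 4d 24h.

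Bglap was compared across cells in the 3 libraries with the most osteoblasts (TO 4d 24h with 84, TOE 2d 24h with 67, TO 2d 0h with 36). The 188 genes set against it were found in at least 50% of the cells. They were members of the lists and other genes picked out, not all genes found so widely, so ranks hold within this set. By the median of the 3 libraries Dcn followed Bglap most closely in the set, with Spearman coefficients of 0.45, 0.54 and 0.74. In TO 4d 24h Serpinf1, Pcolce and Cpz (0.49) lay above Dcn. Serpinf1 had 0.58, 0.36 and 0.53, the procollagen C-proteinase enhancer Pcolce 0.51, 0.24 and 0.52, and Col1a1 0.37, 0.29 and 0.41. Alpl had -0.13, 0.14 and 0.15, and Runx2 -0.40, 0.02 and -0.12, with no common direction in the 3 libraries. These are descriptions over cells that share a library and a total, and that were all above the Bglap gate. Bglap itself had coefficients of 0.18, -0.06 and 0.00 with the total UMIs of the cell.

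Of the mineralization genes, Alpl was the steadiest, at 464, 386, 392 and 435 CPM in the TO libraries and 413, 437, 498 and 384 CPM in the TOE libraries. Ifitm5 (BRIL), a membrane protein of mineralising osteoblasts, lay at 619.8, 371, 644 and 587 CPM in the TO libraries and 363, 422, 603 and 505 CPM in the TOE libraries. Smpd3, a sphingomyelinase needed for matrix mineralization, lay at 264, 873, 741 and 235 CPM in the TO libraries and 639.7, 399.9, 913 and 651 CPM in the TOE libraries. Smpd3 was lowest in TO 2d 0h and TO 4d 24h and 3.88-fold apart over the libraries, while Alpl was 1.29-fold apart. Phospho1 lay at 106, 42.3, 43.1 and 81.9 CPM in the TO libraries and 45, 142, 78.8 and 157 CPM in the TOE libraries, with its 3 lowest values in libraries of 4 h. Phex, a protease-like regulator of phosphate, lay at 230.2, 418, 334 and 158 CPM in the TO libraries and 263, 318, 767 and 194 CPM in the TOE libraries, highest in TOE 4d 4h. Among the inhibitors, Ankh lay at 268, 361, 43.1 and 232 CPM in the TO libraries and 115, 287, 49.4 and 117 CPM in the TOE libraries and Enpp1 at 42.5, 49.8, 3.59 and 20.7 CPM in the TO libraries and 49.98, 18.1, 29.4 and 24.3 CPM in the TOE libraries. Both were lowest in TO 4d 4h, the library with 11 osteoblasts.

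Of the transcription factors of the lineage, Runx2, the master regulator, lay at 322, 582, 1506 and 363 CPM in the TO libraries and 779.6, 306, 627 and 388 CPM in the TOE libraries. Each library of 4 h lay above each library of 0 or 24 h. Sp7 (osterix) lay at 51.7 to 111 CPM, Dlx5 at 30.1 to 56.6 CPM, Mef2c at 351 to 678 CPM and Creb3l1 (OASIS), which drives the secretory load of type I collagen, at 253 to 459 CPM. The parathyroid hormone receptor Pth1r lay at 242 to 636 CPM.

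**Figure D3:**
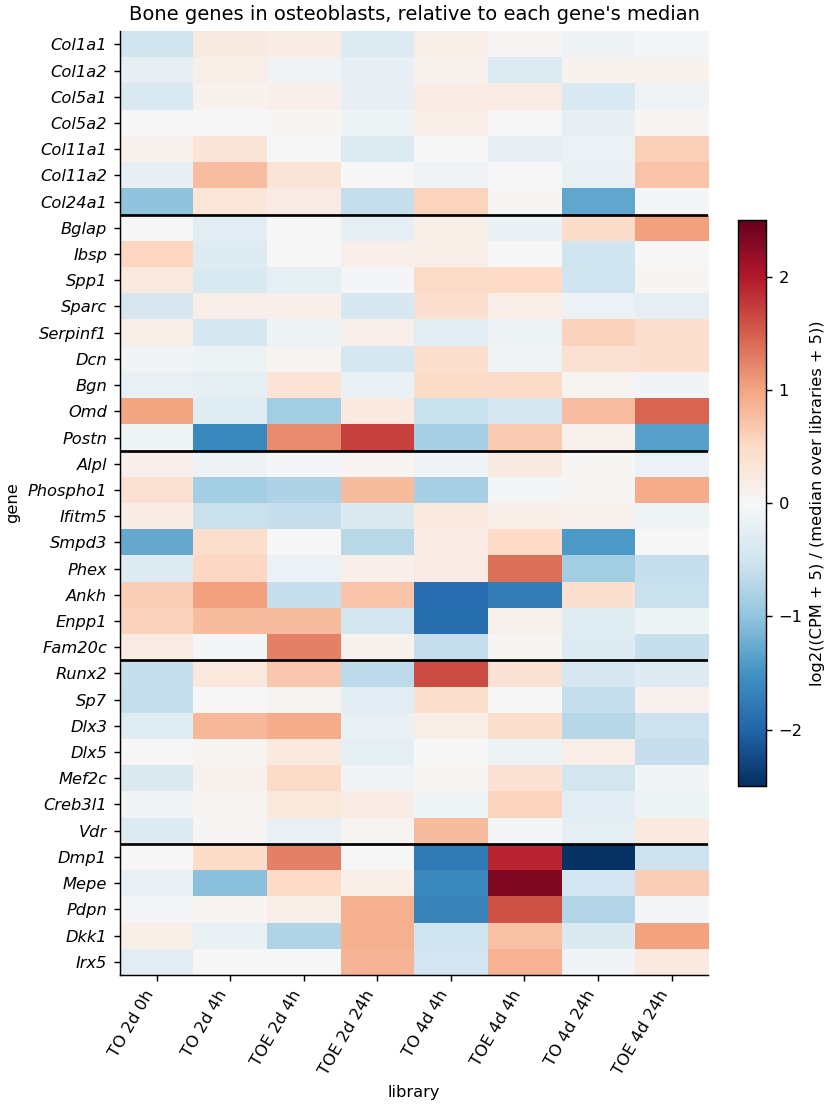
Bone genes in the osteoblasts of each library, as log2 of CPM + 5 over the gene's median CPM + 5 (red above, blue below the median, colours limited to 2.5 either way), grouped from top to bottom as collagens, other matrix proteins, mineralization genes, transcription factors and osteocyte genes. Alpl and Creb3l1 are pale throughout, Runx2 is red in the 4 h libraries, and Dmp1 runs from 31.5 CPM in TO 4d 24h to 751 CPM in TOE 4d 4h.

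To compare detection at equal depth, every member was thinned to 3000 UMIs. Alpl was then found in 63.3% of osteoblasts (91.9% unthinned), against 1.61% of B-lineage cells thinned alike, and Sp7 in 16.8% (72.4% unthinned), against 0.0913%. Of the osteocyte genes, Phex was found in 35.0% (75.4% unthinned), Dmp1 in 18.5% (39.1% unthinned) and Mepe in 2.02% (15.8% unthinned), against at most 0.236% of B-lineage cells. Sost was found in 0 of 297 (exact 95% upper limit 1.23%), and unthinned in 3 cells with 6 UMIs, all of TOE 2d 24h. Col3a1, a collagen of fibrous tissue, was found in 45.5% (74.1% unthinned) against 6.06%, but its thinned share varied between libraries, from 5.88 to 63.6% of osteoblasts and from 0.63 to 26.7% of B-lineage cells. The highest B-lineage share was that of TOE 2d 24h, where 55.2% of osteoblasts had a UMI. Mmp13, the collagenase of hypertrophic cartilage and late osteoblasts, was found in 3.37% (9.76% unthinned) against 0.238%. Cxcl12 and Col2a1 were found in 1.01% and 0.337% (6.06% and 2.02% unthinned), and Col10a1 in 0. Mki67 was found in 10.8% (44.8% unthinned) and Top2a in 6.73% (35.4% unthinned), below their 31.3% and 25.8% in B-lineage cells, many of which divide, and no reading of division in osteoblasts is drawn from these shares.

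Dmp1, a matrix protein of cells on the way to osteocytes, lay at 195, 271, 53.9 and 31.5 CPM in the TO libraries and 475, 198, 751 and 134 CPM in the TOE libraries. The highest library was 23.9-fold above the lowest. Its UMIs sat in few cells: 31 of 297 osteoblasts, from 7 libraries, held at least 10 each, and 1 cell held 89.5% of the Dmp1 of TOE 4d 4h. In TO 2d 4h the highest cell held 92.7%. Without its highest cell, TOE 4d 4h came to 87 CPM. Mepe had at least 10 UMIs in 2 cells, and both of these also held at least 10 Dmp1 UMIs. Mmp13 reached 10 UMIs in 9 cells of 5 libraries, and 1 cell carried 98.7% of it in TO 2d 4h.

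Osteoblasts were then compared with the comparison cells, which shared the Col1a1 gate, the UMI gate and the library and differed in Bglap. UMIs were summed per library and cell group, and 7 libraries with at least 10 cells on each side were fitted in edgeR with library as a block. TOE 2d 4h, with 7 comparison cells, was not fitted. Col1a1 and Bglap were taken out. Of 10436 genes tested, 878 were higher in osteoblasts (8.41%) and 892 lower (8.55%) at an adjusted p under 0.05. Genes that go with Bglap from cell to cell were bound to differ, so these calls describe what a Bglap gate separates. The comparison cells per library fitted numbered between 10 (TO 4d 24h) and 185 (TOE 2d 24h). Without TOE 2d 24h the calls fell from 1770 to 1008, and no call shared with any alternative changed sign.

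Among genes with a fitted mean log2 CPM of at least 5 and 1 direction in all 7 libraries, Col11a2 rose most. On the fit's scale of normalised CPM without Col1a1 and Bglap, it lay at 1515 to 3287 in osteoblasts and 19.7 to 642 in comparison cells, a log2 difference of 3.67 ± 0.54 (SE; adjusted p = 0.000865), and the groups did not overlap. Cst3 (cystatin C), a secreted inhibitor of cysteine proteases, lay at 3207 to 9078 against 255 to 2156, a difference of 2.86 ± 0.40 (SE; adjusted p = 0.000588). Car3, a carbonic anhydrase, differed by 2.92 ± 0.49 (SE; adjusted p = 0.00201), and Cpz, a carboxypeptidase that binds Wnt proteins, by 2.97 ± 0.28 (SE; adjusted p = 6.41e-05). Both were higher in osteoblasts in 7 of 7 libraries without overlap. Col22a1 (2.78), the chloride channel Ano1 (2.82), Lgals9 (2.80), Ablim3 (3.62), Dtna (3.15), Fam110d (2.97), Gdpd5 (2.95) and the calcium release channel Ryr3 (2.73) completed the 12 largest rises. Without TOE 2d 24h Ryr3 lost its call (adjusted p = 0.0548, edgeR), with a log2 difference of 2.61.

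The 12 largest falls among the same genes included genes of fibrous tissue, cartilage and contractile cells. Postn (periostin), made by periosteal and callus cells, lay at 0 to 57.8 in osteoblasts and 235 to 1897 in comparison cells, a log2 difference of -5.70 ± 0.61 (SE; adjusted p = 0.000119). Tagln, an actin-binding protein of contractile cells, lay at 0 to 140.0 against 156 to 1809.7, and differed by -5.58 ± 0.62 (SE; adjusted p = 0.000163). Neither overlapped. Aspn (asporin) differed by -5.79, Col14a1 by -6.51, the adipokine Rarres2 by -6.08, the growth factor Ptn by -5.55 and the cartilage proteoglycan Acan by -4.92. Pxdn, Zfpm2, Itgbl1, Fndc1 and C1qtnf3 ranged from -5.38 to -4.68. Each of the 12 was at 0 in at least 1 osteoblast library, so these fitted values depend on the prior of the fit.

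**Figure D4:**
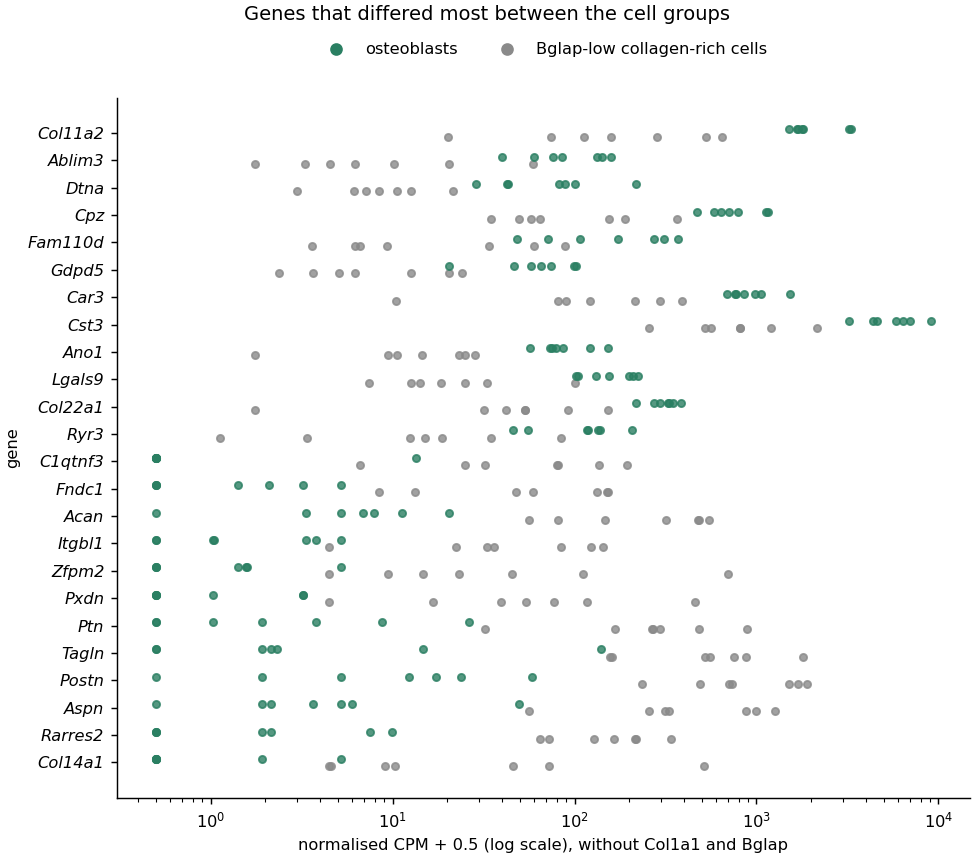
The 12 top rises and 12 top falls in osteoblasts against Bglap-low collagen-rich cells, as normalised CPM + 0.5 (log axis, Col1a1 and Bglap removed); each green point is the osteoblasts and each grey point the comparison cells of 1 of 7 libraries. Col11a2, Cst3, Car3 and Cpz have no overlap, and Postn and Tagln are likewise separate in the other direction.

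Within the gene lists, 11 of 18 bone matrix genes tested were higher and 3 lower. The higher ones were Col1a2 (1.96), Sparc (1.92), Serpinf1 (2.11), Omd (2.09), Spp1 (2.01), Col24a1 (2.45), Col11a1 (1.97), Dcn (1.37), Col5a2 (0.84), Bgn (0.64) and Col11a2. The lower ones were Postn, Tnn (-3.80) and Fn1 (-1.61), matrix proteins that also belong to periosteum, callus and wound tissue. Ibsp was not called, at 0.83 (adjusted p = 0.317), nor Dmp1 at 2.10 (adjusted p = 0.0644), nor Mepe, nor Col5a1. The list median was 1.64, beside -0.01 over all genes tested.

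Of 13 mineralization genes, 4 were higher and 2 lower. Phex (2.72), Ifitm5 (2.61), Smpd3 (2.14) and the secretory kinase Fam20c (1.83) were higher in 7 of 7 libraries, and Enpp1 (-1.34) and the calcification inhibitor Mgp (-4.01) were lower. Alpl was not called, at 0.23 (adjusted p = 0.768), and was higher in osteoblasts in 3 of 7 libraries. Of 17 transcription factors, 7 were higher, among them Dlx3 (1.84), Esr1 (1.49), Vdr (1.35), Mef2c (1.15), Dlx5 (1.04) and Creb3l1 (0.74), and Snai2 (-3.46), a factor of mesenchymal precursors, was lower. Runx2, at 0.35 (adjusted p = 0.609), and Sp7, at 1.06 (adjusted p = 0.11), were not called. A missed call does not show equal levels.

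Of 24 genes of collagen processing and secretion, 11 were higher and 3 lower. The procollagen proteinases Bmp1 (1.36) and Adamts2 (1.29), Pcolce (0.89), the chaperone Fkbp10 (0.90) and Crtap (0.83) were among the higher, each in 7 of 7 libraries. Loxl1 (-1.73), Plod1 (-1.46) and Colgalt1 (-0.63) were lower while Loxl4 (1.44) and Plod2 (0.56) were higher, so crosslinking enzymes of 1 family went different ways. Of 9 osteocyte genes, Dkk1 (2.36), a secreted Wnt inhibitor, and Phex were higher and Cd44 (-1.48) and Wnt16 (-3.92) lower.

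Of 21 fibroblast and callus genes, 0 were higher and 18 lower, with a median of -3.33. Col3a1 lay at 443, 7.46, 1143 and 779 CPM in the TO libraries and 208, 928, 892 and 279 CPM in the TOE libraries in osteoblasts and at 4286 to 14747 CPM in comparison cells, a difference of -3.67 ± 0.56 (SE; adjusted p = 0.001). Of 8 cartilage genes, 6 were lower, among them Acan, Comp (-6.51) and Sox9 (-1.28), and DESeq2 called 4 (Acan, Comp, Sox6 and Sox9). Comp was lower in 6 of 7 libraries and at 0 in at least 1 osteoblast library. Col2a1 was called by edgeR, but comparison cells held 1841 CPM of it in TO 2d 0h and at most 6.89 CPM in the other libraries. Of 13 marrow stromal niche genes, 7 were lower, among them Cxcl12 (-2.62) and Vcam1 (-2.93), and Pdgfra (0.60) was higher.

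Of 11 genes through which bone-forming cells act on osteoclasts, 0 were higher and 4 lower. Csf1 (-1.39), the macrophage growth factor, Il6 (-1.97), Sema3a (-1.42) and Wnt5a (-1.81) were lower. Tnfsf11 (RANKL), the osteoclast-inducing ligand, was low, at 0 to 15.6 CPM, and its decoy receptor Tnfrsf11b (osteoprotegerin) lay at 1.79 to 58.3 CPM. Neither was called, at -1.27 (adjusted p = 0.0714) and -0.35 (adjusted p = 0.593).

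Of 46 genes of hormone, Wnt, BMP, FGF and IGF signalling, 8 were higher and 16 lower. The higher ones included Bmp3 (1.89), Bmp2 (0.86), Fgfr1 (0.94), the Wnt co-receptor Lrp5 (1.24), and Smad6 (1.56) and Smad7 (1.16), inhibitors of BMP and TGF-beta signals. The lower ones included H19 (-8.21), Igf1 (-5.71), Igfbp3 (-4.51), Dkk3 (-3.18) and Sfrp1 (-2.88). H19 and Igf1 were lower in 6 of 7 libraries and Igfbp3 in 5 of 7, so they did not meet the rule for the named falls. H19 lay at 0 to 0.54 in osteoblasts and 0 to 354 in comparison cells on the fit's scale. Like Igf1 and Igfbp3, it was at 0 in at least 1 osteoblast library, so these fitted values depend on the prior of the fit. Of 19 vascular and hypoxia genes, Angpt2 (2.99), Ndrg1 (0.87) and P4ha1 (0.56) were higher and 5 lower, among them Vegfc (-3.00). Of 17 proteases and inhibitors, Mmp16 (1.57) was higher and 4 lower, among them Mmp13 (-2.23) and Mmp14 (-1.41). Of 18 cell cycle genes 0 were higher and 7 lower, of 27 immediate-early genes 6 higher and 0 lower, of 14 heat shock genes 0 higher and 2 lower, and of 17 genes of mechanosensing 0 higher and 2 lower (Piezo2 and Ptgs2). Over all genes tested 8.41% were higher and 8.55% lower, and 2 of 14 and 2 of 17 lie near that share. Of the markers of other cells, Igll1 was the only 1 of 7 B-cell markers called and was higher, Lyz2 was higher and Vcan lower among 4 of macrophages, and 2 of 3 endothelial and 2 of 5 smooth muscle markers were lower. Among 8 neutrophil, 10 erythroid, 5 osteoclast and 4 T-cell and plasma-cell markers edgeR called 0. At an unadjusted p under 0.05 it had 1, 0, 2 and 2 of them, in that order. DESeq2 called 1, Jchain, whose UMIs lay almost all in the single member of TO 4d 24h described above.

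Shock waves were tested over the 3 pairs at once, TOE against TO, with pair as a block. Of 6998 genes 0 were called (0%) by edgeR, with 444 at an unadjusted p under 0.05, and 0 by DESeq2, with 187. Without the filter on low counts edgeR called 72. The smallest adjusted p was 0.105. In this fit the pairs stand as replicates although they differ in day and hour, and the 4d 4h TO library brought 11 cells. Without the pair 4d 4h 61 genes were called, and without the pair 4d 24h 17. Dmp1, at 2.04 ± 0.42 (SE; adjusted p = 0.153), Mepe, at 2.46 ± 0.58 (SE; adjusted p = 0.259), the carbonic anhydrase Car12, at 4.02 ± 0.77 (SE; adjusted p = 0.118), and the Wnt effector Lef1, at 1.65 ± 0.36 (SE; adjusted p = 0.177), were not called, and each lay higher in TOE in 3 of 3 pairs. In the 4d 4h pair 1 TOE cell held 89.5% of the Dmp1 UMIs and the highest TOE cell for Mepe 83.3% of the Mepe UMIs, and Dmp1 was found in 34.6% of TOE and 54.5% of TO cells. Named after their values were seen, G0s2 and Dennd2b had the smallest p and lay lower in 3 of 3 pairs.

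Within the pairs, the 20 bone matrix genes had median log2 ratios (TOE over TO) of 0.05 (18 measured, pair 2d 4h), 0.01 (19 measured, pair 4d 4h) and 0.39 (20 measured, pair 4d 24h), beside 0.06, 0.12 and -0.01 over all genes. In the last pair 4 of the 20 were at least 2-fold higher and 1 at least 2-fold lower, where 5.18% of 9185 genes were higher and 7.82% lower. Dmp1 and Mepe, whose UMIs sat in few cells, were among the 4 higher. The 20 include Col1a1 and Bglap, which were used to choose the members. The log2 ratio of Bglap was 0.27, -0.30 and 0.56 in the 3 pairs, and that of Runx2 0.42, -1.26 and 0.10. In the 4d 24h pair Smpd3 was 651 CPM in TOE and 235 CPM in TO, the highest ratio among the 11 mineralization genes measured in that pair, and Vegfa, the vascular growth factor, 45.6 CPM in TOE and 102 CPM in TO. Counting intervals on sums over so few cells are narrower than the spread between cells, and are not used here to call a gene changed.

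The summed UMIs of osteocyte genes were higher in TOE in the 4d 4h pair, whose TO side held 11 cells. Of 12 listed, 8 had at least 20 UMIs over the pair, and all 8 were at least 2-fold higher in TOE. Their median log2 ratio was 2.90, where 10.9% of 5622 genes were 2-fold higher and 6.19% 2-fold lower. The minimum was on the sum of both sides, with 749196 osteoblast UMIs in TOE and 278165 in TO. Genes low in TO could therefore pass through TOE alone, as Mepe and Ackr3 did, and 8 of 8 is no result about the list. Pdpn (podoplanin), needed for the processes of young osteocytes, was 286 CPM in TOE and 25.2 CPM in TO, Phex 767 CPM in TOE and 334 CPM in TO and Cd44 216 CPM in TOE and 39.5 CPM in TO. Mepe had 54 UMIs in TOE and 0 in TO, and Ackr3 44 and 0. In TOE the highest cell for each gene held 83.3% of Mepe, 89.5% of Dmp1, 30.4% of Pdpn and 28.7% of Phex. Without that cell Dmp1 came to 87 CPM and Phex to 604 CPM, both less than 2-fold above all TO cells, and Mepe to 13.3 CPM. Dmp1 had a UMI in 34.6% of TOE and 54.5% of TO cells, or 23.1% and 27.3% thinned. Phex was found in 23 of 26 TOE and 11 of 11 TO cells, or 34.6% and 54.5% thinned. In the 2d 4h pair 0 of 5 were 2-fold higher or lower, where 7.97% of 5298 genes were higher and 4.40% lower. In the 4d 24h pair 3 of 8 were 2-fold higher (Dmp1, Mepe and Dkk1) and Cd44 lower, where 5.18% of 9185 genes were higher and 7.82% lower. Few cells carried Mepe there, with 19 UMIs in TOE and 17 in TO. It had a UMI in 10.7% of TOE and 13.1% of TO cells, or 3.57% and 1.19% thinned. Dmp1 had a UMI in 32.1% of TOE and 27.4% of TO cells, or 10.7% and 7.14% thinned, and the median cell held 0 in both libraries.

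The genes with the 6 highest and 6 lowest ratios of each pair were looked up by cell. On the side where the gene was higher, 1 cell held at least 50% of its UMIs for 7 of the 12 genes of the 2d 4h pair. The 4d 4h pair had 8 such genes and the 4d 24h pair 1. At 2d 4h the matrix genes Col3a1 (208 CPM in TOE and 7.46 CPM in TO) and Thbs4 (347 CPM in TOE and 44.8 CPM in TO) were higher, with Col6a3, Plcl1, and Ltbp1 and Col6a2, which were at 0 in TO. Plcl1 and Ltbp1 drew 86.3% and 71.2% of their UMIs from 1 cell, and Thbs4 and Col3a1 56.7% and 50.4%. Limch1, Rpl37a-ps11, Parp8, Sox5, Dpp6 and Cemip2 were lower. Dpp6, a potassium channel partner, was 93.3 CPM in TOE and 420.4 CPM in TO with 29.6% in 1 cell, where Sox5, Cemip2 and Limch1 had 86%, 84% and 54.5%.

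At 4d 4h the metallothioneins Mt1 (222 CPM in TOE and 10.8 CPM in TO) and Mt2A (at 0 in TO), the inflammasome adaptor Pycard (112 CPM in TOE and 3.59 CPM in TO), Dock9, Dmp1 and Mepe had the highest ratios. The highest TOE cell for each gene held 74.1% of Mt2A, 53.6% of Mt1 and 42 of the 84 UMIs of Pycard. Hes1, the Notch target, was 18.7 CPM in TOE and 277 CPM in TO, with a UMI in 42.3% of TOE and 81.8% of TO cells and 24.7% in 1 cell. Over the other 6 libraries Hes1 lay at 145 to 206 CPM, so TOE 4d 4h was the library apart. Ckap5, Irf1, Cemip and Fgd3 were lower as well, and the highest TO cell for each gene held 98.5% of Stfa2l3, 60% of Cemip and 50% of Ckap5.

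At 4d 24h the lowest ratios were those of blood and immune transcripts. Hba-a1 (haemoglobin alpha) was 6.8 CPM in TOE and 455 CPM in TO, and Hba-a2 and Hbb-b1 went the same way. B-lineage cells of the same libraries held 5.06 CPM of Hba-a1 in TOE and 1477 CPM in TO, so the background differed in the same direction. Cd83 and the chemokine Cxcl1 had 87 and 100 UMIs in TO and 0 in TOE, and in B-lineage cells Cd83 was 59.9 against 377 CPM and Cxcl1 0.282 against 5.78 CPM. For Igha, 1 TO cell held 98.9%. The highest ratios included small RNAs, namely 3 tRNAs (Trnam-cau_4, Trnat-ugu_3 and Trnar-acg_3) and Rpph1, the RNA of RNase P, with Slc28a2 and Zdhhc2. Rpph1 was 73.8 CPM in TOE and 8.94 CPM in TO, and 118 against 23.6 CPM in B-lineage cells.

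Osteoblasts also differed by the hour of collection. In a comparison added after the values were seen, the 4 libraries of 4 h were set against those of 0 and 24 h in edgeR with arm as a term. Of 7641 genes, 203 were higher at 4 h (2.66%) and 214 lower (2.80%). Of 27 immediate-early genes, transcription factors and regulators switched on within minutes of a stimulus, 0 were higher at 4 h and 15 lower, with a median of -1.27 beside 0.03 over all genes. Junb lay at 1543, 381, 237 and 1452 CPM in the TO libraries and 429.8, 1376, 278 and 1313 CPM in the TOE libraries, a difference of -2.10 ± 0.22 (SE; adjusted p = 0.000838), and Atf3 at 2022, 559.7, 93.5 and 1951 CPM in the TO libraries and 265, 1834, 89.4 and 1057 CPM in the TOE libraries. Every library of 4 h lay below every other for both, as for 17 of the 27, where 7.87% of all genes did so. Of 15 transcription factors of the lineage, 3 were higher at 4 h, among them Runx2 (1.28) and Dlx3 (1.21). Omd (-1.56), Phospho1 (-1.23) and Timp1 (-0.89) were lower.

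The summed immediate-early genes came to 3330.2 to 7649 CPM at 4 h and 15050.5 to 21238 CPM at 0 or 24 h in osteoblasts. In cells that were not collagen-rich they came to 3781 to 6762 and 3979.7 to 8980.1 CPM, which overlapped. In the Bglap-low collagen-rich cells, which shared the Col1a1 gate, they came to 6742 to 11563 CPM at 4 h and 8500.0 to 15626 CPM at 0 or 24 h, where 1 library, TOE 4d 24h, lay within the 4 h range. The ribosomal protein Rpl21, named after its values were seen, lay at 746, 2017, 1829.8 and 557 CPM in the TO libraries and 1864, 775, 2429 and 593 CPM in the TOE libraries, and in B-lineage cells of the 4 h libraries likewise above the others (2145 to 2315 against 807 to 932 CPM). Among the 20 highest genes, mitochondrial COX2 lay at 6454, 2604, 1319 and 7392 CPM in the TO libraries and 2784, 6932, 1719 and 3706 CPM in the TOE libraries, so each library of 4 h lay below each other library. CYTB lay at 1765 to 2771 CPM at 4 h and 4416 to 5905 CPM at 0 or 24 h, likewise without overlap, while mt-Rnr2, a mitochondrial ribosomal RNA, went the other way, at 8679 to 12303 CPM at 4 h and 4200.4 to 6721 CPM at 0 or 24 h. COX3, ATP6, COX1, ND4 and Rpl41 overlapped by hour. Sparc, Col1a1 (part of the choice) and Cst3, also among the 20, were higher at 4 h without overlap, while Col1a2 and Col5a2 overlapped. In the edgeR fit by hour, 0 of the 20 bone matrix genes, which include Sparc and Col1a1, were called higher at 4 h and 1 lower. Sparc lay at 41138 to 49208 CPM at 4 h and 27825 to 33771 CPM at 0 or 24 h. Col1a1 lay at 139909 to 158773 against 95948 to 132462 CPM, and Cst3 at 5055 to 6888 against 2184 to 3926 CPM. The part of library preparation in the difference by hour was not tested. Without TO 4d 24h the calls fell from 417 to 106, and without TO 2d 0h, TO 2d 4h, TO 4d 4h and TOE 2d 24h to 167, 238, 194 and 164.

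**Figure D5:**
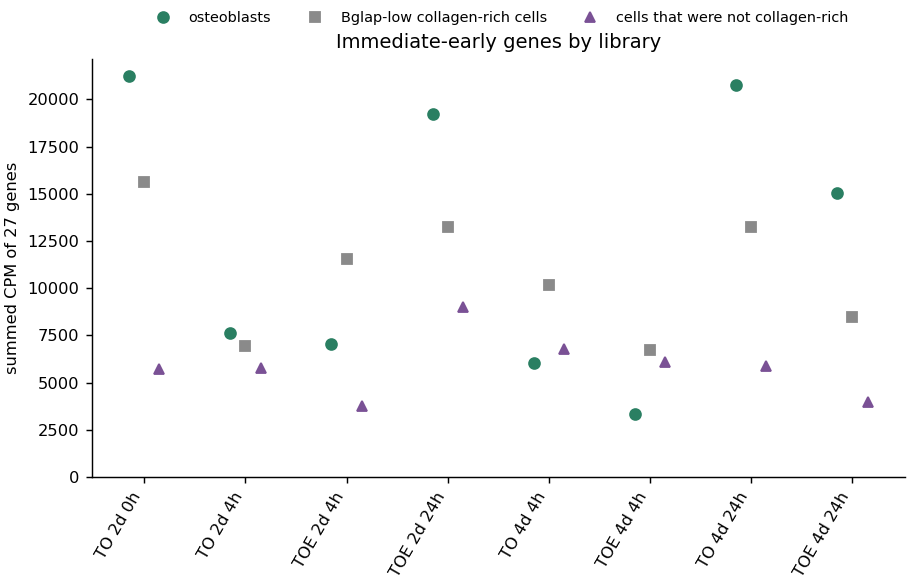
Summed level (CPM) of 27 immediate-early genes in osteoblasts (green circles), Bglap-low collagen-rich cells (grey squares) and cells that were not collagen-rich (purple triangles) of each library. In osteoblasts the 4 h libraries lie at 3330.2 to 7649 CPM and the others at 15050.5 to 21238 CPM.

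The study sought the cells that release small extracellular vesicles. In its mesenchymal cells, marked by Thy1, it multiplied the expression of 7 vesicle markers by the number of cells. It proposes these cells as the likely source, also from work on cultured cells. The markers were the tetraspanins Cd63, Cd9 and Cd81, the flotillins Flot1 and Flot2, and Tsg101 with Rab27a. The shares given here are another measure, and Thy1 was lower in osteoblasts than in the comparison cells (-3.33, adjusted p = 0.000176, edgeR). Of all marker UMIs, osteoblasts held 3.72, 0.948, 0.657 and 9.47% in the TO libraries and 1.17, 4.06, 1.65 and 4.02% in the TOE libraries. Of all UMIs they held 1.07, 0.342, 0.234 and 2.29% in the TO libraries and 0.418, 1.73, 0.551 and 1.08% in the TOE libraries, less than their share of the markers in each library. When the natural log of each cell's value was summed in place of UMIs, the marker share came to 0.58, 0.231, 0.183 and 1.41% in the TO libraries and 0.349, 0.956, 0.417 and 0.458% in the TOE libraries, below the UMI share in each library and above the osteoblast share of cells. In CPM, the 7 markers came to 1784 to 3451 in osteoblasts and 642 to 1386 over all cells. Cd63, a tetraspanin of late endosomes and vesicles, made up most of this, at 2389, 1261, 1611 and 2553 CPM in the TO libraries and 1601, 2412, 2034 and 2455 CPM in the TOE libraries. Against the comparison cells, Cd63 (0.76) and Cd9 (0.66) were higher, as was Thbs1 (thrombospondin 1), a matrix protein that the study followed in vesicles, at 1.61 ± 0.32 (SE; adjusted p = 0.00466). Thbs1 lay at 476, 639, 748 and 508 CPM in the TO libraries and 249.9, 455, 319 and 573 CPM in the TOE libraries. Of 12 vesicle genes tested, 3 were higher and 0 lower, where 8.41% of all 10436 genes were higher and 8.55% lower. Within pairs, the marker share was higher in TOE in both 4 h pairs and lower in the 4d 24h pair, as was the share of osteoblasts among cells.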

How the data were processed

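Single-cell libraries of 8 conditions were analysed, 1 per condition. The deposited matrices hold raw UMI counts per gene and barcode, made by the authors from 10x Chromium 3′ libraries with Cell Ranger 9.0.0; R 4.0.3 and Seurat are also named in the submitters' processing notes. The notes name the builds mRatBN7.2 and GRCh38 without a role, and the annotation is not given in the sources used here. Barcodes, gene names and counts were used as deposited, with no cell annotation. All other values were computed here with Python 3.11.15, scanpy 1.11.5 (Scrublet), scipy 1.17.1, R 4.3.3, edgeR 4.0.16 and DESeq2 1.42.0.

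The osteoblast rule, the gene lists and the tests were chosen with earlier results of these data known, so no list is independent evidence. CPM is the summed UMIs of a gene per 1000000 UMIs of the osteoblasts of a library. B-lineage cells, used to gauge free RNA, had at least 3000 UMIs, at least 5 of Cd79a and Cd79b per 10000 and Col1a1 below its gate. Doublet scores above 0.25 were counted but no cell was removed. Sums per library and cell group were fitted with edgeR's quasi-likelihood test, with TMM factors, its filter on low counts and Benjamini-Hochberg adjustment over all genes tested; a call is an adjusted p under 0.05. Ratios within a pair used a prior of 0.5 UMI and genes with at least 20 UMIs over the pair. Cells are not replicates, and p-values measure only the spread between these libraries, which may be technical. The fits were checked on simulated counts.

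Genes named are the 20 highest by mean CPM, the 12 largest rises and 12 largest falls against the comparison cells with the same direction in every library, the 6 highest and 6 lowest ratios in each pair among genes with at least 50 UMIs found in at least 25% of the cells of one side, any gene called over the pairs, and members of the lists. G0s2, Dennd2b and Rpl21 were named after their values were seen. A few members of the lists are counted but not reported here by name. In the fit of cell groups both groups of a library come from the same library, and in the fit over pairs TO and TOE share only day and hour. Alternatives were other gates, size factors, filters, DESeq2, fits without the block, and each library or pair left out. Promoter windows came from RefSeq's GRCr8 annotation, which is not the build of the counts, and were matched by symbol.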

Additional observations from a re-analysis of the deposited data

Results flagged for a closer look

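The share of osteoblasts among cells, TOE over TO, went different ways: it was 1.49 and 2.17 in the pairs 2d 4h and 4d 4h, but 0.381 in the pair 4d 24h. It stands here because the ratio lay above 1 in the first pairs and below 1 in the last, with 1 library on each side. The difference between the pairs was not tested. In the last pair TO 4d 24h held 84 osteoblasts and 10 comparison cells, and TOE 4d 24h 28 and 21.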

How the results depend on the processing

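Over all cells pooled, the osteoblast share was 0.260%, and 0.230% with a Bglap minimum of 100, 0.292% with a UMI minimum of 1500 and 0.338% among cells with at least 3000 UMIs. The share of vesicle marker UMIs in osteoblasts was 3.31% and became 0.595% when the natural log of each cell's value was summed. Without thinning, the shares of osteoblasts with a UMI were 44.8% for Mki67, 35.4% for Top2a, 39.1% for Dmp1, 15.8% for Mepe, 75.4% for Phex, 72.4% for Sp7, 91.9% for Alpl, 9.76% for Mmp13, 6.06% for Cxcl12, 2.02% for Col2a1 and 74.1% for Col3a1. Genes called between osteoblasts and comparison cells ranged from 1008 to 1788 with a library left out, and were 1869 by DESeq2, 2241 without the filter and 1287 without the library as a block (no replicate block), beside 1770. No gene called in both changed sign under any of these. Ryr3 lost its call without TOE 2d 24h (adjusted p = 0.0548, edgeR), with a log2 difference of 2.61 beside 2.73. Genes called over the pairs were 72 without the filter, 0 to 61 with a pair left out and 0 without the pair as a block. Genes called by hour ranged from 106 to 484 with a library left out. Of 349 list medians within pairs 22 moved, and of 159 gene ratios 3 moved. The depth of 11 osteoblasts in TO 4d 4h limits every value of that library.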

Other observations

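Gene groups beyond bone matrix also differed between the libraries of a pair, given here as counts with no test. At 4d 24h 8 of 27 immediate-early genes were at least 2-fold lower in TOE and 0 higher, where 7.82% of all 9185 genes were lower. At 4d 4h 8 of 22 were 2-fold lower and 0 higher, where 6.19% of 5622 genes were lower, and at 2d 4h 2 of 24 were lower and 0 higher, where 4.40% were. The sum of the 27 genes in the 4d 24h pair was 20746 CPM in TO and 15050.5 CPM in TOE in osteoblasts, 13240.1 CPM in TO and 8500.0 CPM in TOE in Bglap-low collagen-rich cells and 5883 CPM in TO and 3979.7 CPM in TOE in cells that were not collagen-rich, lower in TOE in each. At 4d 4h the Bglap-low collagen-rich cells had 10159 CPM in TO and 6742 CPM in TOE, and the cells that were not collagen-rich 6762 CPM in TO and 6099.7 CPM in TOE. Whether osteoblasts differed from other cells in this was not tested. Of the vascular and hypoxia genes, 5 of 13 were 2-fold higher in TOE at 2d 4h and 0 lower, where 7.97% of 5298 genes were higher. At 4d 4h 2 of 11 were higher and 2 lower, where 10.9% of genes were higher and 6.19% lower, and at 4d 24h 1 of 17 was higher and 5 lower, where 5.18% of genes were higher and 7.82% lower. Vegfa, the main angiogenic factor, lay at 139, 129, 64.7 and 102 CPM in the TO libraries and 85, 100.3, 62.7 and 45.6 CPM in the TOE libraries. Of the heat shock genes, 4 of 13 were lower at 4 h than at 0 or 24 h (Hspa8, Dnajb1, Hspa1a and Dnaja1) and 0 higher, in the edgeR comparison by hour where 2.80% of 7641 genes were lower. Hspa8, a constitutive chaperone, lay at 652, 261, 262 and 815 CPM in the TO libraries and 253, 536, 218 and 687 CPM in the TOE libraries.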
